A study of Mus musculus with 62 samples.

Results

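The genes described here are *Fyn*, *Ptpn5*, *Ptpra*, *Prkca*, *Prkcb*, *Prkcd* and *Prkce*, which encode the tyrosine kinase Fyn, the striatal-enriched phosphatase STEP, receptor phosphatase alpha and 4 protein kinase C (PKC) isoforms. They were taken by gene name, 7 of the 56415 genes in the deposited count table, and all 7 passed the low-count filter in every comparison. RNA-seq of poly(A) RNA was performed on 62 libraries from 16 male C57BL/6J mice, 8 to 10 weeks old, taken from the cortex, from the dorsal and ventral parts of the hippocampus (dHPC and vHPC) and from the dorsal and ventral parts of the striatum (DS and VS). Mice received intraperitoneal ethanol at 2 g/kg or an equal volume of saline, either as 1 injection (acute) or as 10 daily injections (chronic), and tissue was taken 4 h after the last one. This gives 20 groups of 3 or 4 mice, and a mouse contributed up to 5 regions. All groups, saline included, were injected, so that repeated injection is shared by the chronic groups.

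The median library held 51703961 gene counts in the cortex, 48892266 in the dHPC, 14530176.5 in the vHPC, 13091491 in the DS and 14524117 in the VS. The cortex and dHPC libraries were made with a kit that does not keep the strand and the other regions with a directional kit on another sequencing platform, so levels were tested only within those region sets. The DS chronic saline replicate 2 library held 0 counts on chromosomes 7, 8, 9, X and Y and on the mitochondrial genome, *Ptpn5* and *Prkcb* included, and was left out, which leaves 61 libraries and 2 DS chronic saline mice. Levels are TMM-scaled CPM, gene counts relative to the size of the library on one scale over the 61 libraries, and are divided by exon length in kb wherever genes are compared with each other. Calls are at a false discovery rate (FDR) below 0.1 over all genes tested with edgeR after the low-count filter, unless another setting is named.

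Marker genes of the labelled tissues were present in each region. The summed level of 10 striatal projection neuron (SPN) markers was 4434 to 8894 CPM in the DS and 2660 to 5919 CPM in the VS, against 329 to 430 CPM in the cortex. Among 13 dHPC libraries, chronic saline replicate 5 stood apart with an SPN sum of 2680 CPM, the next highest being 966 CPM. In the vHPC, acute ethanol replicate 4 (1282 CPM) and chronic ethanol replicate 5 (1416 CPM) stood above the others, of which the highest was 527 CPM. The summed level of 8 pallial excitatory neuron markers was 1578 to 3553 CPM across cortex, dHPC and vHPC libraries and ranged from 62.5 to 773 CPM in the DS. Choroid plexus markers, led by *Ttr*, varied from 22.5 to 7055 CPM among DS libraries. In bulk tissue, a lower share of cells of a type and less RNA per cell cannot be told apart.

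Fyn is a Src-family kinase of the postsynaptic density that phosphorylates the GluN2B subunit of the NMDA receptor. Receptor phosphatase alpha removes the inhibitory C-terminal phosphate of Fyn, whereas STEP dephosphorylates Fyn and GluN2B and is enriched in striatal neurons. The conventional isoforms PKC alpha and PKC beta respond to calcium and diacylglycerol, while the PKC delta and PKC epsilon isoforms respond to diacylglycerol without calcium. Fyn, STEP and PKC epsilon have each been studied for their part in the responses of the brain to alcohol.

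*Fyn* lies on chromosome 10 (GRCm39 chr10:39244851-39441377, plus strand), and 9 isoforms of it were counted. Its pair of mutually exclusive coding exons, at the start of the kinase region, distinguishes the brain form from the form of T cells, and both are shown because 10 of the 11 coding exons of Fyn-201 are shared with Fyn-202, so that these bases separate them. The sequences are from the GRCm39 reference, plus strand, 5′ to 3′. Capitals mark the bases that differ or have no partner when the exons are aligned with each other.

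Fyn-202 exon, chr10:39405433-39405597: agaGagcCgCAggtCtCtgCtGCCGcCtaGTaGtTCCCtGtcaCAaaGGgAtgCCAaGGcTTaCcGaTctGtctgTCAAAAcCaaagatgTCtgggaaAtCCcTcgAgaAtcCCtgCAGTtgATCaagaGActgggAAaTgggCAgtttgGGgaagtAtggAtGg
Fyn-201 exon, chr10:39405915-39406070: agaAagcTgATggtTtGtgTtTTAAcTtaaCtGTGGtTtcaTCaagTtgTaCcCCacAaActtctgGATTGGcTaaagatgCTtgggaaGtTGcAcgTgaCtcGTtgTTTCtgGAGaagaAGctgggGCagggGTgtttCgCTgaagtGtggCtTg

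The Fyn-202 exon has 165 bases and the Fyn-201 exon 156, of which 93 are matched in the alignment. A read that overlaps a shared exon was counted for both isoforms, so only reads lying wholly within one of these exons, or in the 43 bases by which Fyn-201 reaches past the ends of Fyn-202, separate the 2 totals. The Fyn-202 count was above the Fyn-201 count in 62 of 62 libraries. The Fyn-202 exon is the longer, so it has more positions for a read lying wholly within it. The counts were not corrected for this. The median excess was 164 counts in the cortex (3.16% of the Fyn-202 count), 204 in the dHPC (3.44%), 20.5 in the vHPC (1.04%), 14 in the DS (1.18%) and 21 in the VS (1.42%). Read length and kit differ between the region sets, so these shares are not compared between them.

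*Fyn* was detected in all 5 regions. In saline mice it was at 103 CPM ± 2.60 in the cortex (SD, n = 6), 121 ± 6.44 in the dHPC (n = 6), 137 ± 6.96 in the vHPC (n = 6), 101 ± 8.50 in the DS (n = 5) and 99.6 ± 1.93 in the VS (n = 6). *Fyn* was higher in the dHPC than in the cortex by 0.25 on the log2 scale (SE 0.04, edgeR FDR 4.68e-05). It was lower in the DS (log2 difference −0.44, SE 0.07, FDR 0.000221) and the VS (−0.45, SE 0.05, FDR 1.24e-05) than in the vHPC, 2 comparisons that share the vHPC saline libraries. DS and VS did not differ beyond their spread (−0.02, SE 0.06, FDR 0.909).

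No ethanol comparison called *Fyn*, and its largest log2 change in either direction was 0.14. In the chronic cortex the saline libraries held 99.6, 101 and 103 CPM and the ethanol libraries 107, 107 and 112.5 CPM. The groups did not overlap there, yet the log2 change was 0.10 (SE 0.07) with an edgeR FDR of 0.626. The groups of 18.2% of all genes tested did not overlap in that comparison. In the acute VS, *Fyn* was at 100.4, 97.1 and 98.0 CPM with saline and 101, 112 and 112.7 CPM with ethanol. That log2 difference was 0.14 (SE 0.09, FDR 0.832).

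*Ptpra*, on chromosome 2 (chr2:130292198-130398044, plus strand), was, like *Fyn*, higher in the dHPC than in the cortex and higher in the vHPC than in the DS and VS. Saline levels were 148 CPM ± 3.39 in the cortex, 206 ± 12.9 in the dHPC, 239 ± 16.7 in the vHPC, 165 ± 4.62 in the DS and 167 ± 8.40 in the VS (SD, n = 6, DS n = 5). The dHPC was above the cortex (log2 0.49, SE 0.04, edgeR FDR 1.68e-07). The DS (−0.53, SE 0.06, FDR 1.56e-05) and the VS (−0.51, SE 0.06, FDR 1.88e-05) were below the vHPC. The DS and VS levels of *Ptpra* did not differ beyond their spread (0.02, SE 0.05, FDR 0.864).

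With ethanol, *Ptpra* passed no test. Its largest change was in the chronic VS, where saline libraries held 158, 156 and 177 CPM and ethanol libraries 187, 194 and 185 CPM. The groups did not overlap, as for 16.1% of all genes tested there, and the log2 change was 0.20 (SE 0.08, FDR 0.479). Pallial and myelin markers moved in the same libraries, with the values given with *Ptpn5*, and their part was not tested. In the chronic dHPC the values were 215, 183 and 216 CPM with saline and 228, 227 and 228 CPM with ethanol. The lowest was the library with the high SPN sum, and the log2 change was 0.14 (SE 0.07, FDR 0.654). Receptor phosphatase alpha transcripts thus stayed within 0.20 of the saline level on the log2 scale in all 10 comparisons.

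*Ptpn5*, which encodes STEP, lies on the minus strand of chromosome 7 (chr7:46727543-46783432). Among the vHPC, DS and VS, which share a kit, it was highest in the striatum, for which its product is named. Saline levels were 491 CPM ± 83.3 in the DS (SD, n = 5) and 412 ± 62.6 in the VS (n = 6), against 103 ± 7.43 in the vHPC (n = 6), 158 ± 11.6 in the cortex (n = 6) and 130 ± 54.2 in the dHPC (n = 6). *Ptpn5* was higher in the DS than in the vHPC by 2.24 on the log2 scale (SE 0.10, edgeR FDR 4.66e-09) and higher in the VS than in the vHPC by 2.01 (SE 0.10, FDR 5.09e-09). Between the VS and the DS the difference was −0.25 (SE 0.13, FDR 0.286).

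The wide spread in the dHPC came from chronic saline replicate 5, the library with an SPN sum of 2680 CPM, which held 237 CPM of *Ptpn5* while the other 5 saline dHPC libraries held 83.0 to 122 CPM. With that library the dHPC to cortex difference in *Ptpn5* was −0.28 (SE 0.19, FDR 0.242). Without it *Ptpn5* was lower in the dHPC than in the cortex by −0.54 on the log2 scale (FDR 7.44e-05).

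**Figure D1:**
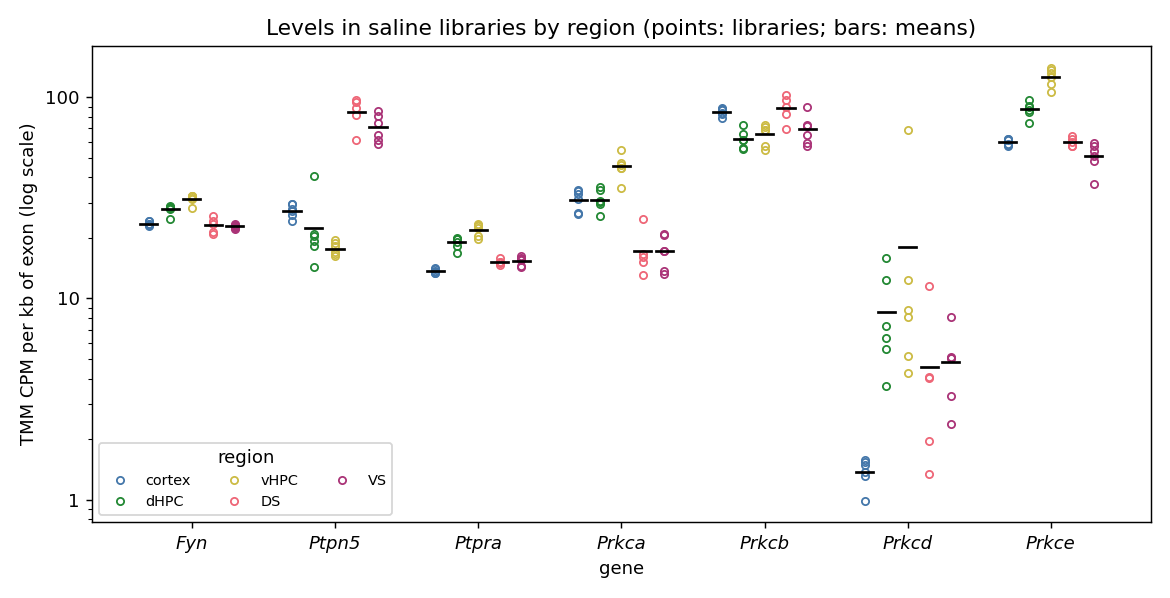
Levels of the 7 genes in the saline libraries, as TMM CPM per kb of exon on a log axis, by region; each point is 1 library and each bar the mean. *Ptpn5* stands at 84.8 in the DS and 71.1 in the VS against 17.7 in the vHPC, and *Prkcd* has the lowest means in the cortex, dHPC, DS and VS.

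*Ptpn5* rose with acute ethanol in the DS. The saline libraries held 475, 551 and 564 CPM and the ethanol libraries 705.5, 658 and 695 CPM, so that every ethanol library lay above every saline library. The groups of 21.4% of all genes did not overlap there. The log2 fold change of *Ptpn5* was 0.35 (SE 0.07, edgeR FDR 0.0112). It was the only one of the 7 genes called in that comparison, where 5.15% of all genes tested were called. DESeq2 gave an FDR of 3.105e-05, with 6.4% of all genes called. Leaving out each library in turn gave log2 fold changes of 0.28 to 0.40 and FDRs of 0.0180 to 0.0502. In a fit of all 4 DS groups together, which takes its spread from the chronic mice as well, the fold change was again 0.35 with an FDR of 0.394.

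Markers of SPNs, the cells in which STEP is enriched, were also higher in those ethanol libraries. Of 10 SPN markers 8 rose and none fell in the acute DS, and all 8 pallial excitatory neuron markers fell. The SPN sum, led by *Pde10a*, was 5950, 7006 and 6200 CPM with saline and 8001, 7773 and 7948 CPM with ethanol. The pallial sum was 539, 565 and 648 CPM with saline and 81.8, 184 and 73.8 CPM with ethanol. As a share of the SPN sum, *Ptpn5* was 7.98%, 7.86% and 9.10% with saline and 8.82%, 8.46% and 8.74% with ethanol. On that scale the groups overlapped: the highest share was in a saline library, and the other 2 saline libraries lay below all 3 ethanol libraries. Choroid plexus markers, of which 2 of 7 rose, summed to 23.2, 303 and 163 CPM with saline and 807, 405 and 74.0 CPM with ethanol. The part of SPN, pallial or choroid plexus content in the *Ptpn5* result was not tested.

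**Figure D2:**
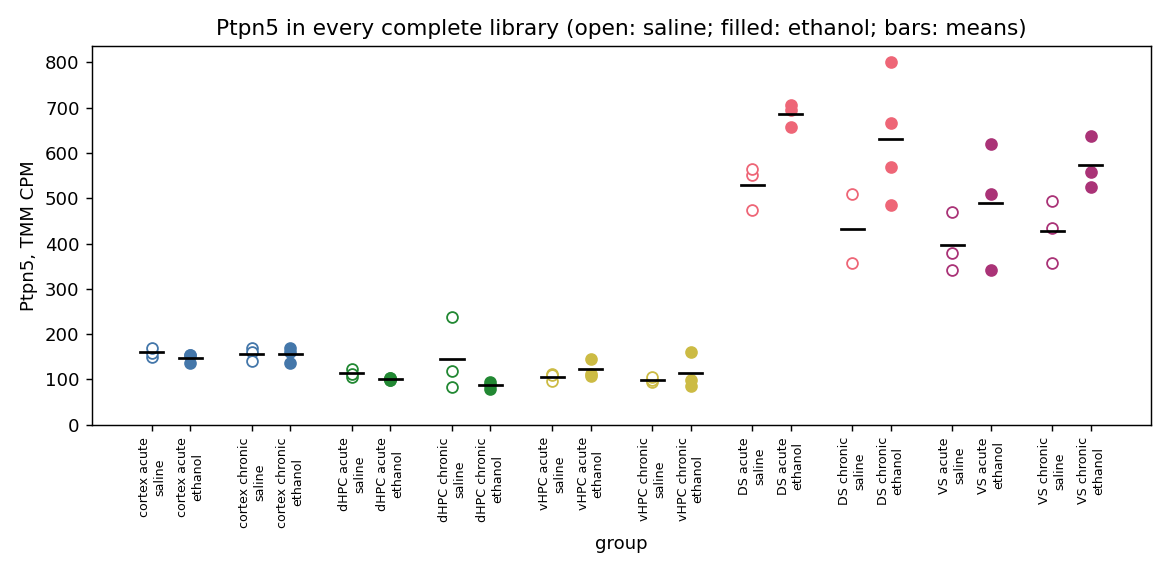
*Ptpn5* in TMM CPM in each of the 61 complete libraries by group, with open points for saline, filled points for ethanol and bars for means. In the acute DS the 3 ethanol libraries, at 658 to 705.5 CPM, lie above the 3 saline libraries, at 475 to 564 CPM, and 1 dHPC chronic saline library lies at 237 CPM.

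In the other striatal comparisons *Ptpn5* was higher on average with ethanol but was not called by edgeR after the low-count filter or by DESeq2. With no low-count filter edgeR called it in the chronic DS (log2 0.53, FDR 0.0418, with 1.6% of all genes called) and the chronic VS (0.43, FDR 0.0563, with 1.88%). In the chronic DS it was at 356 and 510 CPM with saline (n = 2) and at 570, 666, 485 and 800.3 CPM with ethanol (n = 4). The groups overlapped, and the log2 difference was 0.52 (SE 0.20, edgeR FDR 0.605). In the chronic VS the values were 434, 357 and 494 CPM with saline and 559, 526 and 638 CPM with ethanol. These groups did not overlap, as for 16.1% of all genes, and the log2 difference was 0.42 (SE 0.13, FDR 0.365). In the acute VS the values were 468.5, 341 and 378 CPM with saline and 619, 509 and 341 CPM with ethanol, which overlapped (log2 0.30, SE 0.20, FDR 0.8205). The lowest ethanol value there was in the library with the lowest SPN sum of the VS, 2660 CPM.

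None of the SPN, pallial or myelin markers was called in the chronic striatum, but many had an unadjusted p below 0.05. In the chronic DS these were 7 of 10 SPN markers (median log2 difference 0.45) and 6 of 8 pallial markers (−2.46). The SPN sum was 4434 and 6053 CPM with saline and 6437, 8049.8, 5418 and 8894 CPM with ethanol, and the pallial sum was 773 and 537 CPM with saline and 81.7, 238, 131 and 62.5 CPM with ethanol. In the chronic VS they were 3 of 10 SPN markers (0.26), 7 of 8 pallial markers (−3.35) and 9 of 12 myelin markers (−0.42). The pallial sum there was 904, 124 and 585 CPM with saline and 80.2, 142 and 63.1 CPM with ethanol, and the myelin sum was 5766, 6557 and 7907 CPM with saline and 4896, 5943 and 4332 CPM with ethanol. The pallial sums did not overlap in the chronic DS and did in the chronic VS. Their part in the *Ptpn5* values was not tested.

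In the hippocampus and cortex *Ptpn5* was not called either. The acute dHPC libraries held 122, 106 and 112 CPM with saline and 102, 98.2, 103 and 99.5 CPM with ethanol. The ethanol libraries were the lower and the groups did not overlap, as for 8.16% of all genes tested, with a log2 difference of −0.17 (SE 0.06, FDR 0.493). The SPN sums of the same libraries were 966, 741 and 618 CPM with saline and 491, 384, 652 and 349 CPM with ethanol. In the chronic dHPC *Ptpn5* was at 118, 237 and 83.0 CPM with saline and 88.5, 93.6 and 78.1 CPM with ethanol (log2 −0.77, SE 0.33, FDR 0.601). Without the saline library at 237 CPM this difference was the smallest of those with 1 library left out, −0.22. In the vHPC the 2 highest *Ptpn5* levels, 145 CPM in acute ethanol replicate 4 and 160 CPM in chronic ethanol replicate 5, were in the 2 libraries with the high SPN sums.

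Across libraries of a region, *Ptpn5* tracked the SPN sum. Pearson's r of the log2 values was 0.98 in the DS (n = 12), 0.90 in the VS (n = 12), 0.95 in the dHPC (n = 13), 0.91 in the vHPC (n = 12) and 0.34 in the cortex (n = 12). The 2 measures come from the same libraries and share their scaling, and the points include both treatments and both paradigms. The value is given as a description.

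**Figure D3:**
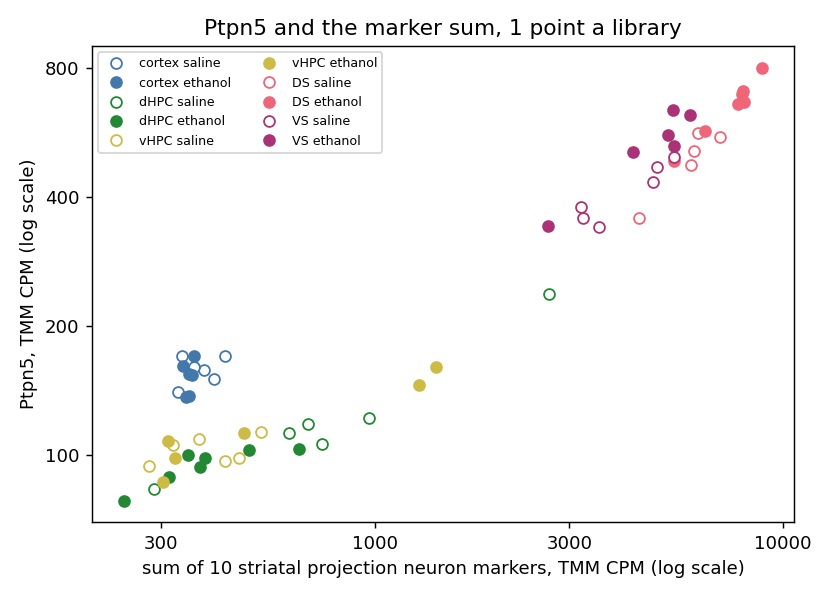
*Ptpn5* against the summed level of 10 SPN markers, both in TMM CPM on log axes, with 1 point for each of 61 libraries, coloured by region, open for saline and filled for ethanol. DS and VS libraries lie at the upper right, and the dHPC library at 2680 CPM on the marker axis lies between the striatal and the other hippocampal libraries.

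Isoform counts were tested in the same way. Of 60 isoforms of the 7 genes, 6 were called in the acute DS, all of them *Ptpn5* and all higher (3.59% of all isoforms tested were called). Reads in shared exons were counted for each of these 6, so they repeat the gene's own change and are not 6 separate observations. The coding isoform that spans the whole gene was at 447, 509 and 520.0 CPM with saline and 653, 606 and 645 CPM with ethanol (log2 0.33, SE 0.07, edgeR FDR 0.00792). The short isoforms Ptpn5-210 and Ptpn5-211, which have no annotated coding sequence and hold only 5′ exons of the gene, changed by −0.02 (SE 0.11, FDR 0.973) and −0.04 (SE 0.11, FDR 0.928). In the acute cortex these same isoforms were the only ones called, where 1.24% of all isoforms were called. There Ptpn5-210 was at 20.0, 21.5 and 20.7 CPM with saline and 16.9, 14.1 and 17.3 CPM with ethanol. It fell by 0.37 on the log2 scale (SE 0.08, FDR 0.0619), and so did Ptpn5-211 (SE 0.08, FDR 0.0604). The whole gene changed by −0.11 in that comparison (SE 0.06, FDR 0.4955). The 2 isoforms share exons and reads, so they count as 1 observation. In the same libraries 3 of 10 SPN markers fell and 6 of 12 myelin markers rose, while 2 of 8 pallial markers rose and 1 fell, and 1 of 6 dentate granule neuron and 1 of 5 endothelial markers fell. The SPN sum was 404, 382 and 430.3 CPM with saline and 357, 345 and 350.3 CPM with ethanol, without overlap, and the myelin sum was 2358, 2084 and 2257 CPM with saline and 3256, 3243 and 2459 CPM with ethanol. Their part in the isoform result was not tested.

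After the low-count filter edgeR called no isoform of the other 6 genes. With DESeq2 or with no filter it was isoforms of *Prkca*, *Prkcb*, *Prkcd* and *Prkce* that gained calls besides those of *Ptpn5*, and none of *Fyn* or *Ptpra*. By edgeR after the filter none of the 60 was called in the other 8 ethanol comparisons or in the 5 interactions, where the share of all isoforms called was 0.0015% in the acute dHPC, 0.0402% in the chronic vHPC, 0.233% in the acute VS, 0.00827% in the chronic VS and 0% in the rest.

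The 4 PKC genes differed in level and in region. Per kb of exon, *Prkcb* (chr7:121887974-122233622, plus strand) was the highest in the saline cortex at 84.6 CPM per kb and in the DS at 88.4, and *Prkce* (chr17:86475213-86965347, plus strand) was the highest in the dHPC at 87.1 and in the vHPC at 127. In the VS *Ptpn5* at 71.1 CPM per kb and *Prkcb* at 69.4 led the 7 genes. *Prkca* (chr11:107824213-108234754, minus strand) was at 31.0 CPM per kb in the cortex and the dHPC, 45.5 in the vHPC and 17.2 in the DS and VS. *Prkcd* (chr14:30317311-30348167, minus strand) was the lowest in the cortex, at 1.38 CPM per kb.

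*Prkce*, the gene of PKC epsilon, was higher in the hippocampal region within each kit. Its saline level was 435 CPM ± 15.7 in the cortex, 633 ± 54.8 in the dHPC, 920 ± 94.2 in the vHPC, 437 ± 22.0 in the DS and 370.3 ± 57.6 in the VS (SD, n = 6, DS n = 5). The dHPC was above the cortex (log2 0.56, SE 0.05, edgeR FDR 5.25e-07), and the DS (−1.05, SE 0.08, FDR 2.04e-07) and VS (−1.30, SE 0.11, FDR 4.605e-07) were below the vHPC. *Prkca* had a similar hippocampal to striatal step, with the DS (−1.38, SE 0.14, FDR 5.78e-06) and the VS (−1.41, SE 0.12, FDR 9.48e-07) below the vHPC, whereas cortex and dHPC did not differ beyond their spread (0.02, SE 0.09, FDR 0.851).

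*Prkcb* went the other way. It was lower in the dHPC than in the cortex (log2 −0.43, SE 0.07, FDR 7.42e-05) and higher in the DS than in the vHPC (0.42, SE 0.11, FDR 0.006925), with saline levels of 647 CPM ± 27.4 in the cortex, 474 ± 51.6 in the dHPC, 501 ± 58.6 in the vHPC, 676 ± 96.9 in the DS and 531 ± 90.6 in the VS. The VS did not differ from the vHPC beyond its spread (0.09, SE 0.10, FDR 0.537) nor, by edgeR, from the DS (−0.34, SE 0.12, FDR 0.116), where DESeq2 gave an adjusted p of 0.0506.

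Counting all 7 genes, 4 were higher and 1 lower in the dHPC than in the cortex, where 55.3% of all genes tested were called. In the DS 2 were higher and 5 lower than in the vHPC (41.6% of all genes), and in the VS 1 was higher and 5 lower than in the vHPC (39.1%). None was called between the VS and the DS (9.88%). There 2 of the 7 had an unadjusted p below 0.05 (21.2% of all genes) and DESeq2 called 1 (13%). With shares this large over all genes, a call between regions is common and is read here for its size.

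*Prkcd*, the gene of PKC delta, varied most between libraries of one region. Its saline level was 7.64 CPM ± 1.19 in the cortex (SD, n = 6), 47.3 ± 25.6 in the dHPC (n = 6), 99.4 ± 139 in the vHPC (n = 6), 25.4 ± 22.7 in the DS (n = 5) and 26.8 ± 10.9 in the VS (n = 6). In the acute vHPC the saline libraries held 382, 48.8 and 44.9 CPM and the ethanol libraries 12.7, 93.1 and 17.5 CPM. The value of 382 CPM, in replicate 2, set most of the difference, which was −1.94 (SE 0.97, edgeR FDR 0.471) and passed no test. That library also had the highest thalamic marker sum of the 61, 596 CPM. The other vHPC acute libraries held thalamic sums of 185 and 130 CPM with saline and 71.0, 154 and 58.5 CPM with ethanol.

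PKC delta is known as a marker of thalamic relay neurons, which lie next to the hippocampus. Pearson's r between log2 *Prkcd* and the log2 sum of 8 thalamic markers was 0.93 in the vHPC (n = 12) and 0.83 in the dHPC (n = 13), and 0.36, 0.32 and −0.22 in the DS, VS and cortex (n = 12 each). The sum was led by *Ntng1* in the vHPC and *Plekhg1* in the dHPC, and *Gbx2* was at 0 in 4 vHPC libraries. In the acute dHPC *Prkcd* was at 31.0, 35.3 and 87.6 CPM with saline and 97.0, 78.9, 157 and 69.0 CPM with ethanol, with thalamic sums of 111, 134 and 181 CPM and 207, 161, 268 and 142 CPM. These groups overlapped on both measures, and the log2 difference of *Prkcd* was 0.96 (SE 0.36, FDR 0.553). The part of thalamic tissue in these values was not tested.

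**Figure D4:**
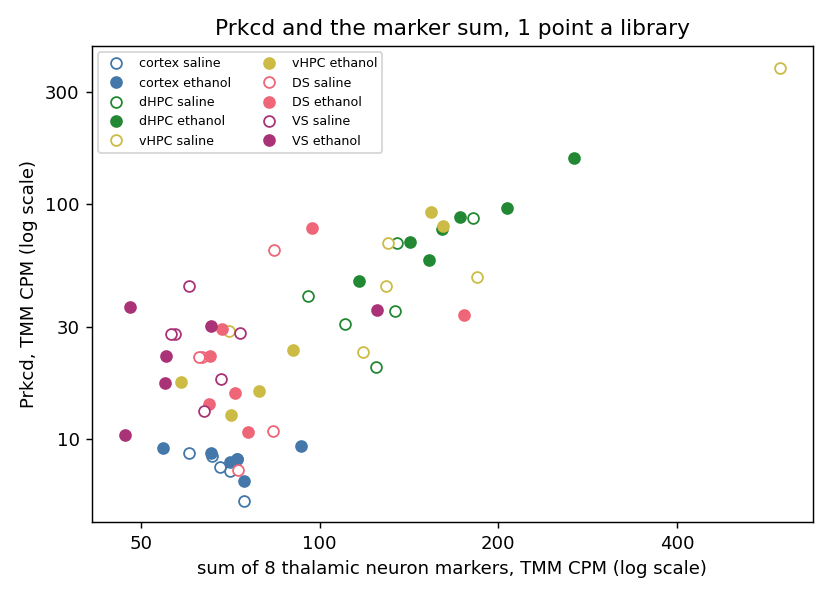
*Prkcd* against the summed level of 8 thalamic neuron markers, both in TMM CPM on log axes, with 1 point for each of 61 libraries, coloured by region, open for saline and filled for ethanol. The vHPC acute saline library at 382 CPM of *Prkcd* and 596 CPM of markers lies apart at the upper right, and the cortex libraries lie at the bottom.

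Between regions, *Prkcd* was higher in the dHPC than in the cortex by 2.65 on the log2 scale (SE 0.30, edgeR FDR 3.44e-06). It was lower in the DS (−1.91, SE 0.65, FDR 0.0371) and the VS (−1.61, SE 0.58, FDR 0.0456) than in the vHPC. Without vHPC acute saline replicate 2 the DS difference was −0.93 (FDR 0.149). The VS call was lost without any 1 of VS acute saline replicates 2, 4 and 6 or vHPC chronic saline replicate 6, with FDRs of 0.109 to 0.111. DESeq2 gave no p-value, and so no call, for the VS difference (−1.58). Exons of 4 genes on the opposite strand overlap those of *Prkcd*, the largest overlap covering 7.98% of its exon bases. In the cortex and dHPC, whose kit does not keep the strand, their reads cannot be told apart from *Prkcd* reads.

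*Prkca* was called in no comparison of ethanol with saline by edgeR after the low-count filter. It was lower with ethanol without overlap in 3 of them, the acute cortex, acute VS and chronic vHPC. In the acute DS it was higher without overlap (log2 0.09, SE 0.06, FDR 0.541). The groups of 12.5% of all genes did not overlap in the acute VS, 14.7% in the chronic vHPC and 21.4% in the acute DS. In the acute cortex *Prkca* was at 309.5, 297 and 280.3 CPM with saline and 266, 243 and 269 CPM with ethanol. The log2 difference was −0.19 (SE 0.05, edgeR FDR 0.115), and DESeq2, with 3.69% of all genes called, gave 0.0484. There 1.99% of all genes tested were called by edgeR, and the groups of 17.6% did not overlap. With a block of replicate number, which nothing in the labels ties to a shared day or litter, edgeR gave −0.25 (FDR 0.0201, with 3.05% of all genes called). That fit draws its difference from the 2 replicate numbers found in both groups. The rise of 6 of 12 myelin and 2 of 8 pallial markers and the fall of 3 of 10 SPN markers and 1 pallial marker given for the *Ptpn5* isoforms are in the same libraries, and their part in the *Prkca* difference was not tested. In the acute VS *Prkca* was at 154, 185 and 189 CPM with saline and 148, 123 and 104 CPM with ethanol. The difference was −0.50 (SE 0.13, edgeR FDR 0.419, DESeq2 0.0914), with 0.0399% of all genes called by edgeR and 0.889% by DESeq2. Without ethanol replicate 2, whose 148 CPM is nearest the saline values, edgeR gave −0.63 (FDR 0.0613), where 290 genes (1.48% of all) were called, against 8 with all libraries. Each other library left out gave no call, with differences from −0.38 to −0.58 and FDRs of 0.283 to 0.983. Pallial excitatory neuron markers moved with it: their sum was 422, 719 and 990 CPM with saline and 199, 86.8 and 115 CPM with ethanol, and of the 8 markers 7 had an unadjusted p below 0.05 and 1, *Neurod2*, fell by the edgeR call. Their part in the *Prkca* difference was not tested.

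In the chronic vHPC *Prkca* was at 402, 413 and 493 CPM with saline and 379, 147 and 214 CPM with ethanol, so that 2 of the 3 ethanol libraries were far below the saline range. The value of 147 CPM was in ethanol replicate 5, the library that stood apart with an SPN sum of 1416 CPM. The log2 difference was −0.82 (SE 0.27, edgeR FDR 0.420), where 0.0555% of all genes were called. Without ethanol replicate 4, at 379 CPM, it was −1.27 (FDR 0.0167), where 360 genes (1.87% of all) were called, against 11 with all libraries. Each other library left out gave no call, with differences from −0.55, without ethanol replicate 5, to −0.89 and FDRs of 0.393 to 0.877. Choroid plexus markers, of which 3 of 7 rose there, summed to 26.3, 206 and 114 CPM with saline and 875, 3155 and 1343 CPM with ethanol. Of 12 myelin markers, 10 had an unadjusted p below 0.05 and none was called, with a median log2 difference of 0.69. The pallial sum was 2942, 3041 and 3553 CPM with saline and 2749, 2043 and 2304 CPM with ethanol, lower in each ethanol library, with 4 of 8 markers at an unadjusted p below 0.05 and none called. The part of these cell types in the *Prkca* difference was not tested. In the chronic DS the 2 saline libraries of *Prkca* were themselves far apart, at 118 and 224 CPM.

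*Prkcb*, the PKC beta gene, was at 688, 782 and 744 CPM with saline and 862, 827 and 861 CPM with ethanol in the acute DS. The groups did not overlap, as for 21.4% of all genes, and the log2 difference was 0.18 (SE 0.06, edgeR FDR 0.123, DESeq2 0.0454). Without saline replicate 4 edgeR gave 0.22 (FDR 0.0765, with 5.37% of all genes called), and each other library left out gave no call (0.14 to 0.195, FDRs of 0.212 to 0.299). In the chronic vHPC *Prkcb* was at 545, 524 and 527 CPM with saline and 496, 450.2 and 322 CPM with ethanol (−0.34, SE 0.14, FDR 0.496). These groups did not overlap either, as for 14.7% of all genes. In these acute DS libraries 8 of 10 SPN markers rose and all 8 pallial markers fell, and in these chronic vHPC libraries 3 of 7 choroid plexus markers rose and 10 of 12 myelin markers had an unadjusted p below 0.05. Their part in the *Prkcb* values was not tested.

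*Prkce* was lower with ethanol in the same comparisons of the vHPC and the VS as *Prkca*. In the chronic vHPC it was at 963, 996 and 1021 CPM with saline and 856, 712 and 824 CPM with ethanol (log2 −0.32, SE 0.10, edgeR FDR 0.406). In the acute VS it was at 349, 391 and 414 CPM with saline and 347, 272 and 258 CPM with ethanol (−0.40, SE 0.12, FDR 0.486). Without VS ethanol replicate 2 the latter difference was −0.53 (FDR 0.0635), and without each other library it was −0.32 to −0.46 with no call (FDRs of 0.486 to 0.996). The marker sums given for *Prkca* in these comparisons apply to the same libraries, and their part in the *Prkce* values was not tested. In the acute DS *Prkce* was at 466, 436 and 417 CPM with saline and 376, 390.4 and 409.5 CPM with ethanol (−0.18, SE 0.06, FDR 0.157, DESeq2 0.0719). The fall of all 8 pallial markers and the rise of 8 of 10 SPN markers are in those libraries too, and their part was likewise not tested. None of these groups overlapped, as for 14.7% of all genes in the chronic vHPC, 12.5% in the acute VS and 21.4% in the acute DS. None of the differences was called by edgeR with all libraries. In the chronic DS *Prkce* was also lower without overlap (−0.26, SE 0.12, FDR 0.667), as for 17.4% of all genes. The marker sums given for *Ptpn5* apply to those libraries, and their part was not tested. In the chronic dHPC *Prkce* was higher with ethanol, at 734, 711 and 717 CPM against 706, 541 and 629 CPM. This was again without overlap, as for 14% of all genes, and without a call (0.19, SE 0.09, FDR 0.633). The value of 541 CPM was in saline replicate 5, the library with the high SPN sum. With 1 library left out the difference in the chronic dHPC ran from 0.10 to 0.28. There all 10 SPN markers (median log2 difference −2.52) and all 12 myelin markers (−0.35) had an unadjusted p below 0.05 and none was called. The SPN sums overlapped, at 686, 2680 and 288 CPM with saline and 312, 374 and 243 CPM with ethanol. The part of these markers was not tested.

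**Figure D5:**
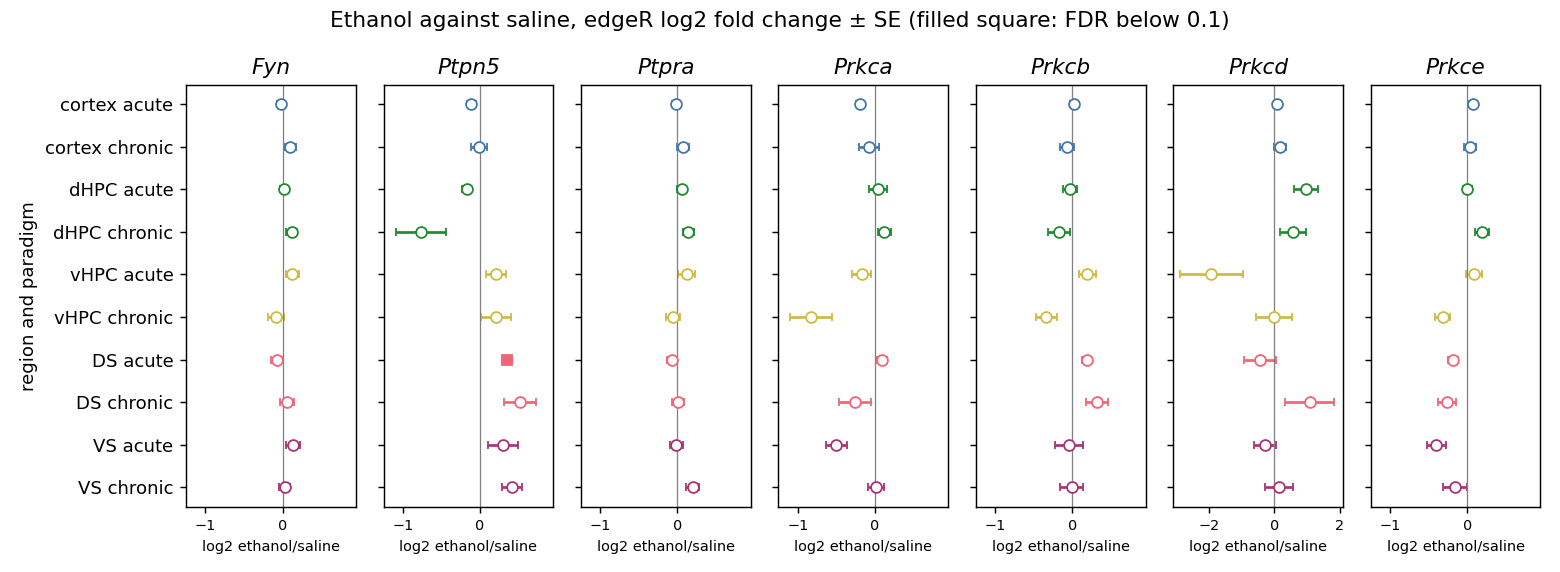
Log2 fold change of ethanol against saline for each gene (panels) in each region and paradigm (rows), from edgeR, with bars for the SE; a filled square marks an FDR below 0.1, and the *Prkcd* panel has a wider axis. *Ptpn5* in the acute DS, at 0.35, is the filled square.

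Of the 70 tests of ethanol against saline on the 7 genes, 15 had an unadjusted p below 0.05 and 1, *Ptpn5* in the acute DS, was called. By comparison, 3 of the 7 genes had such a p in the acute DS (15.5% of all genes) and in the chronic vHPC (9.51%), 2 each in the acute dHPC (7.88%), the acute VS (7.32%) and the chronic VS (9.95%), 1 each in the acute cortex (12.5%), the chronic dHPC (8.23%) and the chronic DS (7.53%), and none in the chronic cortex (10.4%) or the acute vHPC (11.9%). With no low-count filter edgeR also called *Prkca* in the acute cortex, the chronic vHPC and the acute VS, *Prkcb* in the acute DS, *Prkcd* in the acute dHPC and acute DS, *Prkce* in the acute VS and *Ptpn5* in the chronic DS and VS. The share of all genes called was then 3.96% in the acute cortex, 2.66% in the chronic vHPC, 1.78% in the acute VS, 5.81% in the acute DS and 0.669% in the acute dHPC. None of the 7 was called at that setting in the chronic cortex (0.281%), the chronic dHPC (0%) or the acute vHPC (0.881%). After the filter no gene of the 7 was called in the acute dHPC, where 0.042% of all genes were. In 5 comparisons edgeR then called 0% of all genes, namely the chronic cortex, chronic dHPC, acute vHPC, chronic DS and chronic VS. There 2656, 2136, 2374, 1495 and 2023 genes had an unadjusted p below 0.05 and DESeq2 called 156, 223, 578, 154 and 364 genes, none of the 7 among them.

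Saline and ethanol groups did not overlap in 18 of the 70 pairs, by the tally that was also made over all genes. *Fyn* in the acute VS is not among these 18. Its levels as printed above, up to 100.4 CPM with saline and from 101 CPM with ethanol, do not overlap either. In the acute DS this held for 5 of the 7 genes, *Ptpn5*, *Prkca* and *Prkcb* being higher and *Ptpra* and *Prkce* lower with ethanol, against 21.4% of all genes tested. In the chronic vHPC it held for 3 (14.7% of all genes), *Prkca*, *Prkcb* and *Prkce*, all lower. For 2 genes each it held in the chronic dHPC (14%), the acute VS (12.5%, *Fyn* not counted) and the chronic VS (16.1%). For 1 it held in the acute cortex (17.6%), the chronic cortex (18.2%), the acute dHPC (8.16%) and the chronic DS (17.4%), and for none in the acute vHPC (18%).

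The question whether the ethanol effect depended on paradigm was tested as an interaction in each region. None of the 35 interaction tests on the 7 genes was called, and 0% of all genes were called in any region. With no low-count filter edgeR called *Prkca*, *Prkcb* and *Prkcd* in the vHPC (2.7% of all genes) and *Prkcd* in the DS (0.717%). Unadjusted p was below 0.05 for *Prkcb* (log2 −0.53, SE 0.19, edgeR FDR 0.354) and *Prkce* (−0.41, SE 0.14, FDR 0.332) in the vHPC and for *Prkca* (0.52, SE 0.18, FDR 0.997) in the VS, chronic minus acute. Over all genes 2174, 1202, 2381, 876 and 965 had an unadjusted p below 0.05 in cortex, dHPC, vHPC, DS and VS in turn, and DESeq2 called 21, 2, 417, 4 and 4 genes, none of the 7 among them.

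Partners of these enzymes were examined as 44 further genes in 5 lists, comprising the other Src-family kinases with their brake Csk, STEP relatives and regulators, other PKC isoforms, Fyn and STEP substrates and scaffolds, and PKC activators, anchors and substrates. They were called in the acute cortex and the acute DS and in no other ethanol comparison or interaction. In the acute DS 5 of 42 tested rose and 4 fell (5.15% of all genes called), and the median log2 change of the 42 was 0.03 against 0.00 over all genes. By list, 2 of 8 STEP relatives and regulators rose and none fell. Among 12 substrates and scaffolds 1 rose and 1 fell, among 10 PKC activators, anchors and substrates 2 rose and 3 fell, and of 7 Src-family genes and 5 other PKC isoforms none was called.

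In the acute DS *Ppp1r1b*, which encodes DARPP-32, a regulator of protein phosphatase 1 in SPNs, rose from 1526 ± 181 to 1959 ± 45.0 CPM (SD, n = 3 each, log2 0.36, SE 0.07, edgeR FDR 0.0169). *Akap5*, an anchor of PKC and protein kinase A at the postsynapse, rose by 0.45 (SE 0.09, FDR 0.0151). *Ptk2b*, which encodes the STEP substrate Pyk2, rose by 0.24 (SE 0.07, FDR 0.0839), *Add2*, the PKC substrate beta-adducin, by 0.24 (SE 0.06, FDR 0.0370), and *Ptpn7*, a relative of STEP, by 0.63 from a low level (SE 0.18, FDR 0.0820). *Nrgn*, the PKC substrate neurogranin, fell from 984 ± 46.9 to 770 ± 58.0 CPM (log2 −0.35, SE 0.07, FDR 0.00944). *Plcb4*, a phospholipase C that releases diacylglycerol, fell by 0.45 (SE 0.09, FDR 0.0101), *Dgkz*, a diacylglycerol kinase, by 0.37 (SE 0.10, FDR 0.0717), and *Mapt*, the Fyn substrate tau, by 0.23 (SE 0.06, FDR 0.0613). The SPN and pallial marker sums given for *Ptpn5* moved in the same libraries, and their part in these changes was not tested.

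Most of these 9 calls depended on the fit. In the fit of all 4 DS groups *Akap5* was called (FDR 0.0832), and the other 8 were not, with FDRs from 0.218 for *Dgkz* to 0.595 for *Nrgn*. With 1 library left out, *Akap5*, *Ppp1r1b*, *Nrgn* and *Plcb4* were called each time. *Ptk2b* and *Mapt* lost the call without any library but saline replicate 4 (FDRs up to 0.243 and 0.2025). *Ptpn7* lost it without saline replicate 4 or 6 or ethanol replicate 4 or 5 (up to 0.263), *Add2* without saline replicate 2 or ethanol replicate 3 or 5 (up to 0.143), and *Dgkz* without saline replicate 6 or ethanol replicate 3 or 5 (up to 0.249). The log2 change of *Dgkz* was −0.23 without saline replicate 6.

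In the acute cortex 1 of 42 tested partner genes rose and 3 fell (1.99% of all genes called). *Ptpre*, the receptor phosphatase nearest to *Ptpra*, rose from 20.2 ± 1.48 to 26.2 ± 0.345 CPM (SD, n = 3 each, log2 0.38, SE 0.08, edgeR FDR 0.0365). *Grin2b*, which encodes the GluN2B subunit that Fyn phosphorylates, fell from 449 ± 41.2 to 381 ± 13.7 CPM (−0.24, SE 0.06, FDR 0.0991). The PKC substrates *Marcks* (−0.33, SE 0.08, FDR 0.0650) and *Nrgn* (−0.21, SE 0.05, FDR 0.0505) fell as well. None of the 4 was called in the fit of all 4 cortex groups, where FDRs were 0.597 for *Ptpre*, 0.752 for *Grin2b*, 0.502 for *Marcks* and 0.595 for *Nrgn*. *Grin2b* lost the call without any library but saline replicate 6 (FDRs of 0.118 to 0.296), *Marcks* and *Nrgn* without saline replicate 2 or 4 or ethanol replicate 4 or 5 (up to 0.215 and 0.223), and *Ptpre* without saline replicate 4 or ethanol replicate 4 or 5 (up to 0.158). In the same comparison 6 of 12 myelin markers rose and 3 of 10 SPN markers fell. Of 8 pallial markers *Neurod6* and *Nptx1* rose and *Cux2* fell, and the pallial sum overlapped, at 2216, 2357 and 2192 CPM with saline and 2423, 2312 and 2265 CPM with ethanol. The part of these cell types in the changes was not tested.

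Genes whose levels ran most like each member over the 61 libraries, after the mean of each region was subtracted, were found among 17998 genes by Pearson's r of log2 CPM. They are given as a description, since the libraries share treatments, mice and tissue composition. *Ptpn5* was most like *Adcy5* (r = 0.90), one of the SPN markers, then *Ric8b* and *Arpp21* (0.89 each). *Prkcd* was most like *Zic1* (0.84), and *Vangl1* (0.76) was also among its 3 most similar genes. For *Prkca* these were *Prickle2* (0.80), *Plch2* (0.78) and *Thsd4* (0.76), and for *Prkcb* they were *Anks1b* (0.81), *Smpd3* (0.81) and *Myt1l* (0.80). *Prkce* was most like *Sort1* (0.81), *Zbtb18* (0.80) and *2900026A02Rik* (0.79). *Ptpra* was most like *Cnih2* (0.74), *Icam5* (0.71) and *Cdc42se2* (0.71), and *Fyn* was most like *Cdip1* (0.73), *Aldoc* (0.66) and *Kif3c* (0.64). Among the 7 genes themselves the highest values were 0.59 for *Prkca* with *Prkce*, 0.54 for *Ptpn5* with *Prkcb* and 0.46 for *Fyn* with *Ptpra*.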

How the data were processed

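The authors deposited raw counts per gene and per transcript isoform. According to their methods and the submitters' processing notes, reads were trimmed with cutadapt 5.0, aligned to GRCm39 with STAR 2.7.10a and counted with featureCounts 2.0.6 over exons, and a read with several alignments, or one touching several features, was counted at each of them. All libraries were counted as reverse-stranded, although the cortex and dHPC kit does not keep the strand, so that reads of the opposite strand were lost there and reads of antisense genes could be counted. The counts behave as counts of reads rather than of read pairs: 57.6% of gene counts from 10 to 999 were even in the cortex and 75.3% in the vHPC. Pairs counted as 2 reads make the precision of a count look better than it is, and halving the counts was therefore tried.

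Testing was restricted to genes that reached 5 counts in 2 or more libraries of a group, and was done with edgeR 4.0.16 (quasi-likelihood test, TMM scaling, R 4.3.3), and p-values were adjusted by Benjamini-Hochberg over all genes or isoforms tested. Each ethanol comparison used the 2 groups of its region and paradigm, interactions used 4 groups of a region, and regions were compared over saline libraries with paradigm as a covariate. The authors' methods use DESeq2, and DESeq2 1.42.0 was the alternative, together with its size factors, no low-count filter, all groups in 1 fit, blocks of replicate number or mouse, and each library left out in turn. The 7 genes were named in every comparison. Of the 44 partner genes, those called in a comparison with ethanol were named, and for likeness the 3 genes of highest r among those with a mean of at least 1 CPM (log2 with a prior count of 2), of which 1 is not reported here. The genes, lists and tests were chosen with earlier results of these data known. The tables held 0 columns of other samples. Gene positions and overlaps are from GENCODE vM39 on GRCm39, which is a later annotation than the deposited counts use. Scripts were tested on simulated data.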

Additional observations from a re-analysis of the deposited data

Results flagged for a closer look

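Groups of 4 mice, which occur in the acute dHPC and chronic DS with ethanol, were checked for a single distant library, 14 times over the 7 genes. *Ptpra* in dHPC acute ethanol replicate 4 was distant, at 201.2 CPM against 220.2, 220.6 and 219.9 CPM in the other 3 libraries. Chance gives about 1 in 20 such groups.

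In 5 cases a gene moved in opposite directions in 2 regions with no overlap between saline and ethanol in either. The search covered every pair of comparisons that shared a region or a paradigm. Within a single comparison the groups of 8.16% (acute dHPC) to 21.4% (acute DS) of all genes did not overlap. Opposite pairs were not counted over all genes, so the 5 have no share to be set against. *Ptpn5* changed by −0.17 in the acute dHPC and by 0.35 in the acute DS on the log2 scale, which is 0.53 apart. *Prkca* changed by −0.19 in the acute cortex and by 0.09 in the acute DS (0.29 apart), and by −0.50 in the acute VS (0.59 from the acute DS). *Prkce* changed by 0.19 in the chronic dHPC, by −0.32 in the chronic vHPC (0.51 apart) and by −0.26 in the chronic DS (0.45 from the dHPC). These differences between regions were not tested, and of the values in them edgeR called *Ptpn5* in the acute DS alone.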

How the results depend on the processing

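Over 1823 values of single genes of the 7 under other settings, 0 reversed a called direction, 80 changed sign without a call in either setting, 33 gained a call and 7 lost one. DESeq2 called 1 of the 7 genes in the acute cortex (3.69% of all genes), 3 in the acute DS (6.4%), 1 in the acute VS (0.889%) and 1 between VS and DS (13%). With no low-count filter edgeR called 1 each in the acute cortex (3.96% of all genes), acute dHPC (0.669%), chronic vHPC (2.66%), chronic DS (1.6%), chronic VS (1.88%) and DS interaction (0.717%), 2 in the acute VS (1.78%), and 3 each in the acute DS (5.81%), vHPC interaction (2.7%) and VS against DS (9.13%). The cause was not tested. With counts halved, a setting chosen after seeing the data, 1 gene was called in the acute cortex (2.4% of all genes), *Prkca* (FDR 0.0985). One fit over all 4 groups called 0 in the acute DS. Leaving out 1 library gave 0 to 1 genes in the chronic vHPC, 1 to 2 in the acute DS and 0 to 2 in the acute VS. The higher counts came where 1.87%, 5.37% and 1.48% of all genes were called in turn. Between VS and DS it gave 0 to 2. The 2 came without DS chronic saline replicate 3 (2065 of 20462 genes called) and without VS chronic saline replicate 3 (1834 of 20345). In the DS interaction, leaving out chronic saline replicate 3 leaves 1 chronic saline library, and the log2 value of *Prkca* was then −0.75. For member isoforms, with the share of all isoforms called, DESeq2 called 4 in the acute cortex (2.24%), 1 in the chronic vHPC (0.723%), 1 in the acute VS (0.708%) and 5 in the vHPC interaction (1.39%), and no filter called 4 in the acute cortex (3.05%), 12 in the acute dHPC (0.599%), 10 in the chronic vHPC (2.29%), 14 in the acute DS (4.15%), 6 in the chronic DS (1.21%), 3 in the acute VS (1.51%), 5 in the chronic VS (1.68%), 26 in the vHPC interaction (2.41%) and 12 in the DS interaction (0.561%). Isoforms of a gene share reads. Of 147 values of called partner genes, 48 lost the call. Over all genes the acute cortex had 515 calls by edgeR, 957 by DESeq2 and 0 in the fit of 4 groups, and the acute DS 1056, 1312 and 283.

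Some replicate numbers are shared between saline and ethanol groups, and nothing in the labels ties them to a shared day or litter. Correlations of the deviations of same-numbered samples ran from −0.313 (chronic cortex, replicate 6) to 0.451 (chronic dHPC, replicate 6) over 14 pairs. In the acute dHPC, the comparison with 3 pairs, they were −0.0154, −0.0336 and 0.00630, and in the acute cortex, with 2 pairs, 0.0864 and 0.179, so the numbers were not taken to pair the samples. In the acute cortex a replicate block draws its difference from the 2 replicate numbers found in both groups. Such a block raised the calls among the 7 genes there to 1, *Prkca* (−0.25, FDR 0.0201), and those over all genes to 789. Over all genes it raised the calls from 0 to 143 in the chronic cortex and from 11 to 15 in the acute dHPC, with none of the 7 among them. Between regions of the same mice a mouse block changed no call on the 7 genes.

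Groups of 3, and 2 for DS chronic saline, limit the tests, and p-values measure the spread between these mice. Regions of different kits cannot be told apart from batch.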
